A study of Mus musculus with 15 samples.

Results

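The IQGAP genes were 3 of the 20453 genes in the count table: Iqgap1, Iqgap2 and Iqgap3, the whole family in the mouse. They were taken by name, and the transcript of each was to be chosen by its mean count, the highest being kept. Each gene has 1 transcript in the table (NM_016721, NM_027711 and NM_001033484), so this choice fell to the only one. The mean counts over all 15 libraries, including 1 left out of the comparisons, were 9684 for Iqgap1, 2807 for Iqgap2 and 422.4 for Iqgap3. All 3 genes passed the filter on low counts.

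IQGAP proteins are large scaffolds. They bind filamentous actin through a calponin homology domain and calmodulin and myosin light chains through IQ motifs. A domain related to Ras GTPase-activating proteins binds active Cdc42 and Rac1 without activating their GTP hydrolysis. Iqgap1 is made in most cells, where it links actin to E-cadherin junctions, microtubule tips and the RAF, MEK and ERK kinases. Iqgap2 is best known from liver, where its loss in mice leads to hepatocellular carcinoma, and Iqgap3 from dividing cells.

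RNA was sequenced from bone marrow cells sorted from C57BL/6 mice. The 14 libraries compared fall into the groups LTearly (4 libraries), LTlate (3), BMTGMP (3) and wtGMP (4). The labels carry the same text for every group, wtGMP included: a human MLL-AF9 cDNA placed into A2Lox-cre cells, chimeric founders crossed back to C57BL/6, and double heterozygous females. MLL-AF9 joins parts of a histone methyltransferase and of AF9 and drives acute myeloid leukaemia. The labels spell out none of the group names and give neither ages, doses nor induction times. The first 3 groups are read here as MLL-AF9 cells, and wtGMP as wild-type granulocyte-macrophage progenitors (GMP). Before the sort, lineage-positive cells were depleted with antibodies to Ter119, Gr-1, B220, Cd11b and Cd5. The labels then describe a gate for GMP and one for long-term stem cells without saying which group went through which. They do not say whether the libraries of a group come from separate animals, so p-values measure the spread between these libraries, which may be technical. The levels below are in CPM, a gene's count relative to the scaled total of its library, and a change is a log2 fold change ± standard error (SE). A gene was called at a Benjamini-Hochberg adjusted p under 0.05, over all 14542 genes tested, in edgeR's quasi-likelihood test.

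Library totals over genes ran from 2469452 to 15092528 counts, with the LTlate libraries deepest. All 4 LTearly libraries had a higher mean rank correlation with the LTlate libraries (0.881, 0.902, 0.874 and 0.935 for LTearly 1 to 4) than with the other LTearly libraries (0.872, 0.881, 0.862 and 0.881). LTearly 4, but not LTearly 1, 2 or 3, was also closer to BMTGMP (0.906) and to wtGMP (0.886) than to the other LTearly libraries. Rank correlation can depend on depth, and LTlate was deepest. This measure therefore cannot show whether LTearly stands as a group of its own. Another library is titled LTearly but its column is named LTlate, so it is shown apart as the unassigned library. The markers of stem cells did not follow the LT name in LTlate: Slamf1, Procr, Fgd5 and Hoxb5 were at 0 in all LTlate libraries. The 8 stem cell markers summed to 22.61 to 51.35 CPM in LTearly, where Mecom led at a mean of 26.99 CPM. They summed to 0.2475 to 7.194 CPM in LTlate, 1.308 to 25.77 CPM in BMTGMP and 0 to 7.964 CPM in wtGMP. In the unassigned library their sum was 107.1 CPM. The 10 GMP markers summed to 8371 to 11920 CPM in BMTGMP and 19620 to 23050 CPM in wtGMP. Their sums were 1635 to 6896 CPM in LTearly and 1874 to 2278 CPM in LTlate. The granule enzyme gene Mpo led in BMTGMP and wtGMP, at means of 7679 and 17580 CPM. In BMTGMP against wtGMP, with 6.51% of all genes called, 1 of the 10 was called higher and 1 lower. These were Cebpe (log2 fold change 1.98) and Cd34 (-5.75), with edgeR adjusted p of 0.0154 and 2.86e-05. DESeq2 called 4 of the 10. LTearly, LTlate and BMTGMP are therefore called by their labels and not by a cell type.

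The promoters are shown because the 3 genes, alike in protein make-up, followed 3 patterns of expression in these libraries. RefSeq promoters were found for 3 of 3 genes on GRCm38.p6, a later build than the mm9 of the counts. Each runs from 250 bases before the transcript start to 50 after it: chr7:80803282-80803581 on the minus strand for Iqgap1, chr13:95891873-95892172 on the minus strand for Iqgap2 and chr3:88081801-88082100 on the plus strand for Iqgap3. Each is written in the direction of its gene. Capitals mark matches on either strand to the letters of the CHR element (TTTGAA), the CCAAT box (CCAAT), the GC box (GGGCGG), an E2F core (GGCGGGA), PU.1 (AGGAAGT) or the E box (CACGTG).
Iqgap1: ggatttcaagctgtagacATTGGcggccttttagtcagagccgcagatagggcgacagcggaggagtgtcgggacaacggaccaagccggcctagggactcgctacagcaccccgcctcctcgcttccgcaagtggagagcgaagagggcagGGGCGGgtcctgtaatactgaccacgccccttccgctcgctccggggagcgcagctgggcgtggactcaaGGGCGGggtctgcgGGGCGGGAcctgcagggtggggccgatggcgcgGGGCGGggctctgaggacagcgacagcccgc
Iqgap2: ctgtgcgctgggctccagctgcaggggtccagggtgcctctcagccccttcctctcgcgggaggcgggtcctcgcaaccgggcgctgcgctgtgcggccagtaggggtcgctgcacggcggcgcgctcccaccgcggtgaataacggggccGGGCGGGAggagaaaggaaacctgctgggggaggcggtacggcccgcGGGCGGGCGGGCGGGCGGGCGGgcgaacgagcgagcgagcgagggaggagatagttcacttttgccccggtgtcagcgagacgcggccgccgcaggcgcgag
Iqgap3: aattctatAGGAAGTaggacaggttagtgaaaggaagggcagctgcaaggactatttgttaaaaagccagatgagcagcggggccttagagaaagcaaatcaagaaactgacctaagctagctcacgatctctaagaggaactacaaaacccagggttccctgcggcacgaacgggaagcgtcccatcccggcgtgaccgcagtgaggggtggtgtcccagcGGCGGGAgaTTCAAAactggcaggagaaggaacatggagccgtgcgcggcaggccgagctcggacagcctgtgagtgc
The Iqgap1 and Iqgap2 promoters were 68.3% and 74.3% G and C, and that of Iqgap3 55.3%, against a median of 52.7% over all promoters. Iqgap1 held 4 GC boxes, 1 E2F core and 1 CCAAT box, and Iqgap2 held 6 GC boxes, 5 of them in 1 run of shared letters, with 1 E2F core. In both, the E2F core shares letters with a GC box. Iqgap3 held no GC box but a PU.1 match 242 bases before the start, an E2F core 28 bases before it and, on the reverse strand as TTCAAA, a CHR element 19 bases before it. CHR elements are known from promoters of genes of late cell cycle, and PU.1 is a factor of myeloid cells. Of 32851 promoters, 17.89% held the CHR letters, 37.41% CCAAT, 35.66% the GC box, 11.34% the E2F core, 9.351% the PU.1 letters and 7.15% the E box, which none of the 3 genes held. A match is a description of letters and not a binding site.

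Iqgap1 was highest in the LT groups. Its levels were 2945, 1533, 2448 and 1230 CPM in LTearly 1 to 4, 1875, 1701 and 1445 CPM in LTlate 2 to 4, and 934.3, 955.9 and 905.9 CPM in BMTGMP 1, 2 and 4, against 642.1, 717.7, 765.6 and 708.5 CPM in wtGMP 1 to 4. Every LTearly and LTlate library lay above every BMTGMP and every wtGMP library, and every BMTGMP library lay above every wtGMP library. The share of all genes that separate groups in this way was not counted, here or for Iqgap2 below. Non-overlap therefore only describes these libraries. LTearly spread most, with replicates 1 and 3 above all other libraries and replicate 4 below every LTlate library. The means were 2039 ± 795.2 CPM in LTearly (SD, n = 4), 1674 ± 216.4 CPM in LTlate (n = 3), 932.1 ± 25.1 CPM in BMTGMP (n = 3) and 708.5 ± 50.85 CPM in wtGMP (n = 4).

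Against wtGMP, Iqgap1 rose by 1.53 ± 0.20 in LTearly (edgeR adjusted p = 3.81e-06), a 2.88-fold higher level, and by 1.24 ± 0.21 in LTlate (adjusted p = 0.000178), a 2.36-fold higher level. Of all genes tested, 20.2% were called in LTearly against wtGMP (10.7% higher and 9.46% lower) and 10.7% in LTlate against wtGMP (7.65% higher and 3.01% lower). The median change of all genes in LTearly against wtGMP was 0.19, and that of Iqgap1 stood well above it. In BMTGMP the difference from wtGMP was 0.40 ± 0.21 with a 95% interval of -0.01 to 0.80 and did not pass the test (edgeR adjusted p = 0.299). In that comparison 6.51% of genes were called (4.35% higher and 2.17% lower). With only BMTGMP and wtGMP in the fit, the difference of Iqgap1 was 0.398 (edgeR adjusted p = 0.0637). Over all alternatives the adjusted p of edgeR or DESeq2 ran from 0.0637 to 0.451, so the difference was called in none.

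The LT groups were also set directly against BMTGMP. Iqgap1 was higher in LTearly than in BMTGMP by 1.13 ± 0.21 (edgeR adjusted p = 0.00197) and higher in LTlate than in BMTGMP by 0.84 ± 0.22 (adjusted p = 0.0466). In LTearly against BMTGMP 6.31% of genes were called (3.27% higher and 3.03% lower), and in LTlate against BMTGMP 2.08% (1.64% higher and 0.447% lower). The LTlate call was lost with median-ratio size factors (adjusted p = 0.144), with transcripts summed per gene (adjusted p = 0.0991) and when LTlate 2, LTlate 3 or any BMTGMP library was left out, with changes of 0.76 to 0.87. Between LTearly and LTlate the difference was 0.28 ± 0.21 with a 95% interval of -0.13 to 0.69 (adjusted p = 0.676), where 0.261% of genes were called (0.124% higher and 0.138% lower). The order of the levels was thus LTearly, LTlate, BMTGMP, wtGMP. Neither LTearly and LTlate nor BMTGMP and wtGMP, which are neighbours in that order, differed by the test.

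Iqgap2 was lower in every MLL-AF9 library than in any wtGMP library. Its levels were 279.3, 523.9, 395.7 and 477.1 CPM in LTearly 1 to 4, 368.9, 413.9 and 291.3 CPM in LTlate 2 to 4, and 98.32, 104.6 and 53.41 CPM in BMTGMP 1, 2 and 4, against 864.2, 715, 899.4 and 812.7 CPM in wtGMP 1 to 4. The 3 BMTGMP libraries analysed lay below all others, and the LT groups between them and wtGMP, overlapping each other. The means were 419 ± 107.2 CPM in LTearly (SD, n = 4), 358 ± 61.98 CPM in LTlate (n = 3), 85.45 ± 27.92 CPM in BMTGMP (n = 3) and 822.8 ± 80.22 CPM in wtGMP (n = 4). The lowest level, in BMTGMP 4, still rested on 257 counts.

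Iqgap2 fell in BMTGMP against wtGMP by 3.26 ± 0.25 (edgeR adjusted p = 6.4e-10), a level 9.60-fold lower, and its p was the 7th smallest of all genes. The fall was 0.97 ± 0.20 in LTearly (adjusted p = 0.000794) and 1.20 ± 0.22 in LTlate (adjusted p = 0.000447). The 3 comparisons share the wtGMP libraries. The groups therefore stood in another order than for Iqgap1, with BMTGMP farthest from wtGMP.

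Set directly against BMTGMP, Iqgap2 was 4.89-fold higher in LTearly (2.29 ± 0.23, edgeR adjusted p = 5.76e-07) and 4.18-fold higher in LTlate (2.06 ± 0.24, adjusted p = 8.19e-06). LTearly and LTlate differed by 0.23 ± 0.22 with a 95% interval of -0.20 to 0.65 (adjusted p = 0.784). The calls on Iqgap2 kept their direction and side of the threshold in all the alternatives run. They rest on 3 BMTGMP libraries. A further column has a BMTGMP name but could not be tied to any sample and was not analysed here, so the low level in BMTGMP is a result of these 3 libraries and may not hold in that column.

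**Figure D1:**
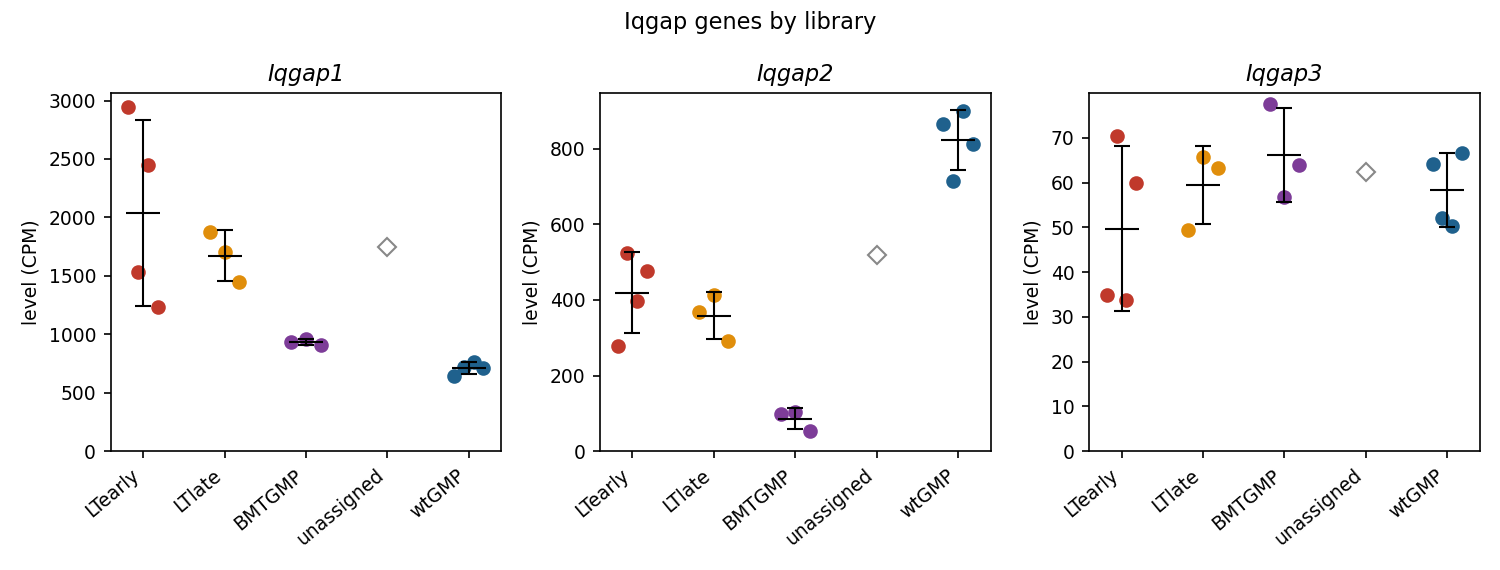
Levels of the 3 genes in CPM (vertical axes, each from 0) by group, with 1 point per library, bars for the group mean ± SD and an open diamond for the unassigned library. For Iqgap1 the LT libraries lie above the rest, from 1230 to 2945 CPM; for Iqgap2 the 3 BMTGMP libraries lie lowest, from 53.41 to 104.6 CPM; for Iqgap3 all groups overlap.

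Iqgap3 was the lowest of the 3 in CPM in every library used but BMTGMP 4, where Iqgap2 was lower, and did not pass the test in any comparison. Its levels were 34.88, 70.38, 33.67 and 59.95 CPM in LTearly 1 to 4, 49.5, 65.8 and 63.17 CPM in LTlate 2 to 4, and 77.57, 56.79 and 64.01 CPM in BMTGMP 1, 2 and 4, against 64.09, 52.18, 50.19 and 66.58 CPM in wtGMP 1 to 4. All pairs of groups overlap, and LTearly spread most. LTearly 1 and 3, the libraries lowest in Iqgap3, are those highest in Iqgap1. The means were 49.72 ± 18.34 CPM in LTearly, 59.49 ± 8.753 CPM in LTlate, 66.12 ± 10.55 CPM in BMTGMP and 58.26 ± 8.274 CPM in wtGMP (SD, n = 4, 3, 3 and 4).

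The differences of Iqgap3 from wtGMP were -0.23 in LTearly (95% interval -0.73 to 0.28), 0.03 in LTlate (-0.51 to 0.57) and 0.18 in BMTGMP (-0.36 to 0.72). Its differences between the MLL-AF9 groups were -0.25 for LTearly against LTlate (-0.79 to 0.28), -0.41 for LTearly against BMTGMP (-0.95 to 0.13) and -0.15 for LTlate against BMTGMP (-0.73 to 0.42). The adjusted p of edgeR's test ran from 0.466 to 0.986. A change of the size seen for Iqgap1 in LTearly lies outside each of these intervals, and smaller changes in at least 1 direction lie inside them.

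**Figure D2:**
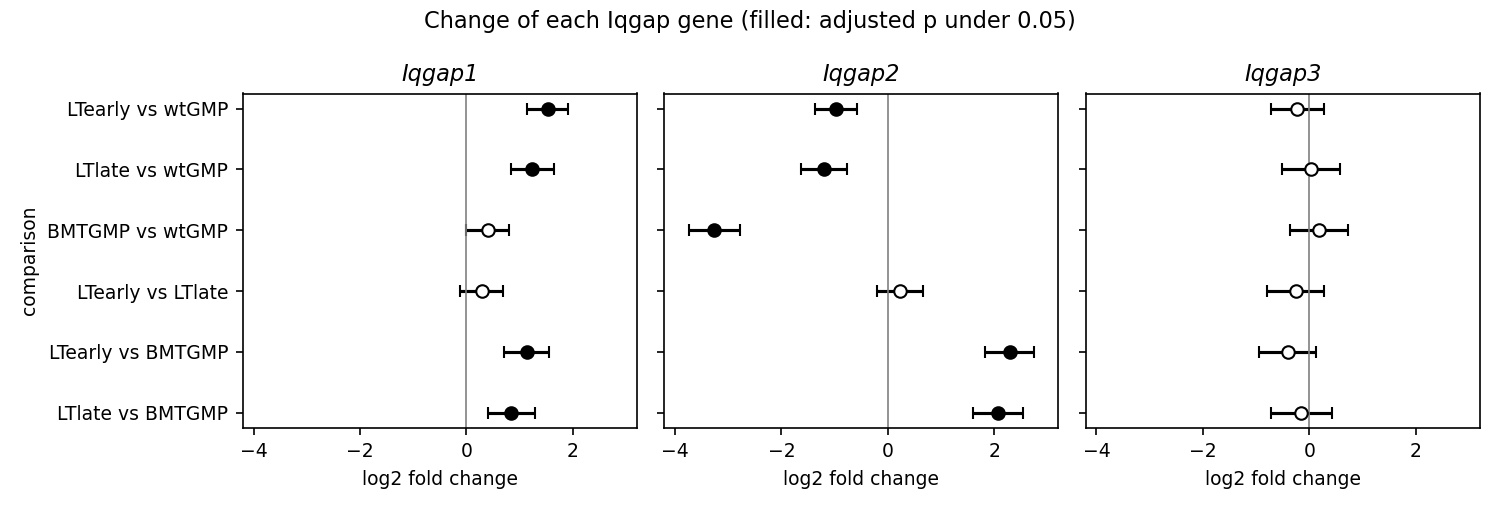
Log2 fold changes (horizontal axis) with their 95% intervals for each gene in the 6 comparisons of groups; a filled point passed the test. Iqgap1 lies right of 0 in LTearly and LTlate, Iqgap2 lies left of 0 in all 3 groups against wtGMP and farthest in BMTGMP at -3.26, and each Iqgap3 interval includes 0.

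On the mean of the 3 MLL-AF9 groups against wtGMP, where 16.8% of genes were called (9.1% higher and 7.65% lower), Iqgap1 was higher by 1.05 ± 0.17 (edgeR adjusted p = 8.28e-05) and Iqgap2 lower, at -1.81 ± 0.16 (adjusted p = 5.01e-09). A gene can pass this test without being called in each group, as Iqgap1 did. Iqgap3 stood at -0.004 (adjusted p = 1), with a 95% interval of -0.43 to 0.42.

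The family's make-up was compared per length, on CPM per kilobase of transcript, since a longer transcript gives more reads. Iqgap1 made up 75.0% ± 11.6 of the family's signal in LTearly (SD, n = 4), 75.6% ± 2.18 in LTlate (n = 3) and 82.7% ± 2.67 in BMTGMP (n = 3), against 38.5% ± 2.92 in wtGMP (n = 4). Iqgap2 made up 22.3% ± 10.1 in LTearly, 20.8% ± 1.90 in LTlate and 9.68% ± 2.76 in BMTGMP, against 57.4% ± 2.75 in wtGMP. Iqgap2 was thus the leading member in each wtGMP library and Iqgap1 in each MLL-AF9 library.

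The level of Iqgap1 per length was 1.999 to 8.173 times that of Iqgap2 in LTearly, 3.186 to 3.941 times in LTlate and 7.084 to 13.15 times in BMTGMP, against 0.576 to 0.7783 times in wtGMP. Iqgap3 held 2.696% ± 1.499 in LTearly, 3.54% ± 0.83 in LTlate and 7.59% ± 1.18 in BMTGMP, against 4.10% ± 0.64 in wtGMP. In BMTGMP, Iqgap2 stood at 0.8322 to 1.837 times Iqgap3, against 12.17 to 17.87 times in wtGMP, and below Iqgap3 in BMTGMP 4. Shares within a library depend on each other, so the larger share of Iqgap3 in BMTGMP is not a higher level.

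The summed family signal was 355.2 ± 87.19 CPM per kilobase in LTearly (SD, n = 4), 297.2 ± 36.63 in LTlate (n = 3) and 151.5 ± 8.143 in BMTGMP (n = 3), against 247.9 ± 15.53 in wtGMP (n = 4). Every BMTGMP library had a lower sum than every library of the other groups.

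**Figure D3:**
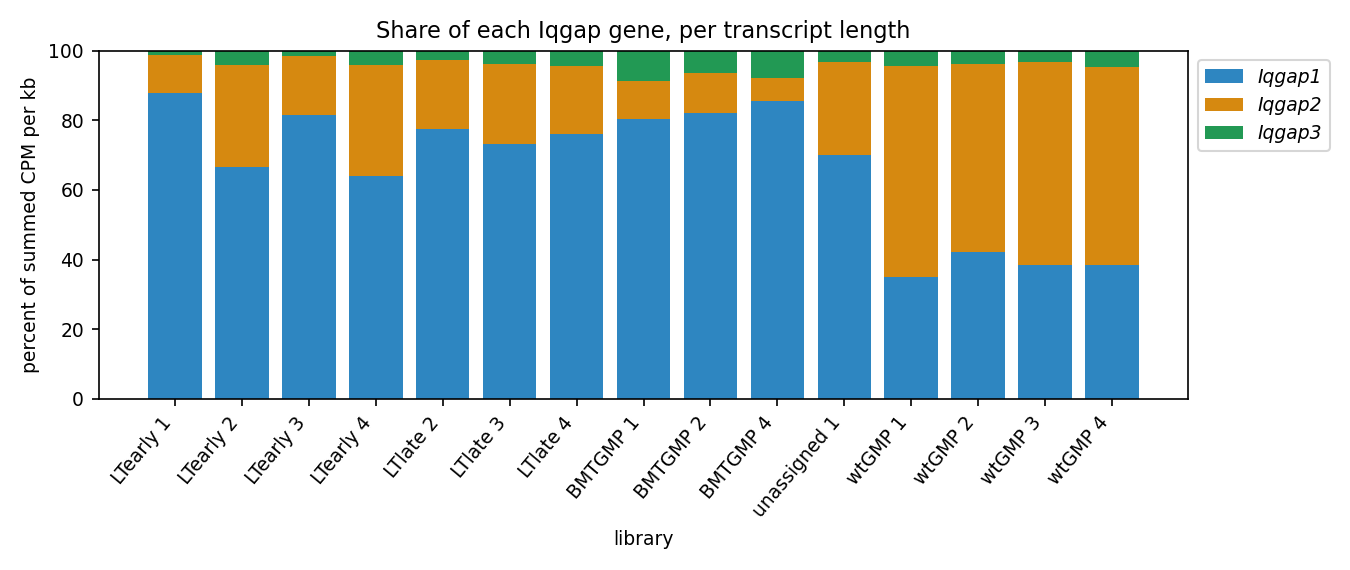
Stacked bars give the share of each gene in the family's signal per length (percent, vertical axis) in each library (horizontal axis), the unassigned one included. Iqgap2 holds the largest share in the wtGMP libraries (54.01 to 60.59%) and Iqgap1 in all others (63.97 to 87.9%).

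Genes of known IQGAP partners were counted in lists by role. The lists hold 46 genes, of which 42 were tested, and describe only how many moved. In LTearly against wtGMP 15 rose and 2 fell, in LTlate against wtGMP 11 rose and 1 fell, and in BMTGMP against wtGMP 4 rose and 3 fell, where 20.2%, 10.7% and 6.51% of all genes were called. The medians of the 42 changes were 0.43, 0.39 and 0.06, against 0.19, 0.01 and 0.06 over all genes. In LTearly against BMTGMP, with 6.31% of all genes called, 5 rose and 0 fell, where 16 had an unadjusted p under 0.05 and DESeq2 called 10, with a median of 0.28 against 0.08 over all genes. In LTlate against BMTGMP, with 2.08% of all genes called, 3 rose and 0 fell, where 12 had an unadjusted p under 0.05 and DESeq2 called 3. Between LTearly and LTlate edgeR called 0 of 42, where 3 had an unadjusted p under 0.05 and DESeq2 called 1. When a single library was left out or a setting changed, the count called ran from 14 to 20 in LTearly against wtGMP and from 4 to 8 in BMTGMP against wtGMP; in LTlate against wtGMP it ran from 6 to 16, with 6 when LTlate 2 was left out. In LTearly against BMTGMP it ran from 3 to 10 and was changed by over 1.5 times by leaving out LTearly 1, BMTGMP 1 or BMTGMP 2, among others.

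The haematopoietic Rac gene Rac2, 1 of the partner genes listed, averaged 257.3 ± 39.8 CPM in LTearly (SD, n = 4), 209.1 ± 18.3 CPM in LTlate (n = 3) and 231.6 ± 30.2 CPM in BMTGMP (n = 3), against 102.3 ± 25.6 CPM in wtGMP (n = 4). Against wtGMP it rose by 1.33 ± 0.19, 1.03 ± 0.20 and 1.18 ± 0.20 (edgeR adjusted p = 6.73e-06, 0.000522 and 0.000165). Rap1b, a Ras-like regulator of integrin adhesion, rose by 0.88 in LTearly and 0.90 in LTlate, and Rhoa, which drives stress fibres and contraction, by 0.75 and 0.73. Both lost their LTlate call without LTlate 2.

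Of 10 genes for actin, its regulators and microtubule partners, 5 rose in LTearly against wtGMP, 4 rose in LTlate and 3 rose and 1 fell in BMTGMP. Of all genes, 10.7% were called higher in LTearly, 7.65% in LTlate and 4.35% in BMTGMP, where 2.17% were called lower. The BMTGMP rises of Actg1, cytoplasmic gamma-actin, and of Apc, a microtubule-binding tumour suppressor, each lost their call in 7 of 16 alternatives (adjusted p up to 0.14 and 0.212), and the LTlate rise of Was in 6 of 16. Actb, cytoplasmic beta-actin, averaged 3467 ± 709.2 CPM in LTearly, 3485 ± 284.4 CPM in LTlate and 2562 ± 388.7 CPM in BMTGMP, against 1531 ± 36.3 CPM in wtGMP (SD, n = 4, 3, 3 and 4), and rose by 1.18, 1.19 and 0.74 (edgeR adjusted p = 2.04e-06, 7.14e-06 and 0.00313). Diaph1, a formin that elongates actin filaments, rose by 1.19 ± 0.19 in LTearly and 1.09 ± 0.20 in LTlate. The gene that fell in BMTGMP was Clip1, which encodes the microtubule tip protein CLIP-170 that links IQGAP1 to microtubules: -1.20 ± 0.19 (adjusted p = 0.000105). Clip1 was higher in LTearly than in BMTGMP by 1.03 ± 0.19 and higher in LTlate than in BMTGMP by 1.69 ± 0.20 (adjusted p = 0.00129 and 1.07e-05).

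Among 9 adhesion, junction and receptor partners tested, 3 rose and 1 fell in LTearly against wtGMP, likewise 3 and 1 in LTlate, and 0 rose and 2 fell in BMTGMP. Of all genes, 20.2%, 10.7% and 6.51% were called in these comparisons. The gene that fell in each was Met, the hepatocyte growth factor receptor, at 28.8 ± 12.5 CPM in LTearly, 19.5 ± 1.59 CPM in LTlate and 10.2 ± 8.74 CPM in BMTGMP, against 111.4 ± 22.0 CPM in wtGMP (SD, n = 4, 3, 3 and 4). Its changes were -1.95 ± 0.40, -2.52 ± 0.45 and -3.49 ± 0.48 (edgeR adjusted p = 0.00127, 0.000654 and 6.08e-05). Ezr, the actin and membrane linker ezrin, moved in opposite directions: it rose by 1.10 in LTearly and 1.08 in LTlate and fell by 0.91 in BMTGMP, at 889.6 CPM in LTearly, 877.2 CPM in LTlate and 220.4 CPM in BMTGMP, against 415.5 CPM in wtGMP. The LTearly and LTlate levels of Ezr exceeded that of BMTGMP by 2.01 ± 0.27 and 1.99 ± 0.28 (adjusted p = 0.000201 and 0.000433). The fall of Ezr in BMTGMP lost its call (adjusted p up to 0.225) with median-ratio size factors, with transcripts summed, and without BMTGMP 1 or 4 or wtGMP 2, 3 or 4. Its rise in LTlate lost its call without LTlate 2 (adjusted p = 0.0554). Cd44, the hyaluronan receptor, rose by 1.06 ± 0.23 in LTearly against wtGMP and was higher by 1.45 ± 0.25 in LTearly than in BMTGMP. The rises of Cd44 and Ctnna1 in LTlate against wtGMP lost their calls in 8 and 2 of 16 alternatives (edgeR adjusted p up to 0.16 and 0.0686).

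Of 10 MAP kinase and AKT partners, 3 rose and 1 fell in LTearly against wtGMP, where 20.2% of all genes were called. The 3 were Map2k1, which encodes MEK1 (1.08 ± 0.22), Braf, the kinase above it (0.93 ± 0.23), and Mapk3, which encodes ERK1 below it (1.38 ± 0.37), with edgeR adjusted p of 0.000618, 0.0034 and 0.00854. The gene that fell was Mtor, at -0.53 ± 0.19 (adjusted p = 0.0419), a call lost in 13 of 18 alternatives. In LTlate and BMTGMP against wtGMP edgeR called 0 of the 10, with 2 and 1 at an unadjusted p under 0.05 and 0 by DESeq2 in both. Of all genes, 10.7% and 6.51% were called there. Calmodulin genes and light chains held 1 rise in LTearly against wtGMP, that of the myosin light chain gene Myl6 (0.56 ± 0.18), which was lost without LTearly 2, wtGMP 2, wtGMP 4, or LTearly 3 and 4. In LTlate and BMTGMP against wtGMP edgeR called 0 of the 4 tested, where 1 and 0 had an unadjusted p under 0.05 and DESeq2 called 1 and 0.

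A further list of RasGAP domain genes, which unlike the IQGAP proteins stimulate Ras GTP hydrolysis, had 8 genes tested and 1 call against wtGMP: Rasa4 fell in BMTGMP by 2.92 ± 0.65 (edgeR adjusted p = 0.00574). In LTearly and LTlate against wtGMP edgeR called 0 of the 8, with 1 and 2 at an unadjusted p under 0.05 and 0 by DESeq2 in both. Of all genes, 20.2%, 10.7% and 6.51% were called in LTearly, LTlate and BMTGMP against wtGMP.

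Iqgap3 was set beside genes of the dividing cell, since it is known from cytokinesis. Over the 14 libraries its log2 CPM had a positive Pearson r with 24 of 24 genes for mitosis and cytokinesis (median r 0.52) and with 14 of 14 DNA replication genes (median 0.54), against a median of -0.02 and 48.2% positive over all genes. These libraries share groups and the points are not independent. The summed level of the 24 genes was 10260, 16010, 10870 and 13800 CPM in LTearly 1 to 4, against 13010, 12450, 12890 and 13360 CPM in wtGMP 1 to 4. LTearly 1 and 3 were low as for Iqgap3, and LTearly 2 and 4 lay above every wtGMP library. In LTearly against wtGMP, where 20.2% of all genes were called and 9.46% were lower, 5 of the 24 fell and 0 rose. On the mean of the MLL-AF9 groups against wtGMP 2 rose and 1 fell, where 16.8% of all genes were called. The 5 that fell in LTearly include the spindle checkpoint kinase gene Bub1 (-0.93 ± 0.23), the cytokinesis exchange factor gene Ect2 (-0.92 ± 0.25) and Birc5, which encodes survivin (-0.74 ± 0.20), with edgeR adjusted p of 0.00397, 0.00862 and 0.00708. In LTlate and BMTGMP against wtGMP edgeR called 0 of the 24, where 3 and 4 had an unadjusted p under 0.05 and DESeq2 called 2 in each. Of 14 DNA replication genes, 9 fell in LTearly, 3 in LTlate and 0 in BMTGMP against wtGMP, the last with 2 that had an unadjusted p under 0.05 and 1 that DESeq2 called. Of all genes, 9.46% were called lower in LTearly, 3.01% in LTlate and 2.17% in BMTGMP against wtGMP. The helicase gene Mcm2 fell by 1.29 ± 0.19 in LTearly (adjusted p = 1.65e-05).

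By the same measure, the genes whose pattern was most like that of Iqgap1 were Lilr4b (r 0.976), AA467197 (0.971), Lilrb4a (0.970), Jak1 (0.957) and Ptprj (0.957). Lilrb4a, an inhibitory receptor gene of myeloid cells, averaged 397.2 CPM in LTearly, 168.5 CPM in LTlate and 39.59 CPM in BMTGMP, against 9.622 CPM in wtGMP. Lilr4b and Lilrb4a are close copies, so reads may be divided between them. The genes least like Iqgap1 were Ctsg (r -0.990), Rbbp7 (-0.969) and Hells (-0.961). Ctsg, the neutrophil granule protease cathepsin G, averaged 263.4 CPM in LTearly, 298.3 CPM in LTlate and 762.9 CPM in BMTGMP, against 1249 CPM in wtGMP.

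Among the genes most like Iqgap2 were Ass1 (r 0.925), Msantd3 (0.902), Il6st (0.901) and Wwc2 (0.899). Ass1, the argininosuccinate synthase gene, averaged 48.67 CPM in LTearly, 40.99 CPM in LTlate and 13.03 CPM in BMTGMP, against 154.8 CPM in wtGMP. Mylk (r -0.936) and Prkcz (-0.921) were among the least like it. Mylk, myosin light chain kinase, averaged 18.08 CPM in LTearly, 27.07 CPM in LTlate and 156.7 CPM in BMTGMP, against 5.143 CPM in wtGMP.

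The genes most like Iqgap3 were Hexa (r 0.907), Ago1 (0.905), Prpf4b (0.887), Plk4 (0.879) and Fancd2 (0.875), of which Plk4 starts centriole duplication and Fancd2 serves the repair of DNA crosslinks. Rnf10 (r -0.914), Plekhm2 (-0.910) and Cd274 (-0.897) were least like it. Among the members themselves r was -0.12 for Iqgap1 and Iqgap2, -0.59 for Iqgap1 and Iqgap3, and -0.15 for Iqgap2 and Iqgap3.

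Markers of maturing myeloid cells moved with Iqgap1. The 11 late neutrophil genes, led by S100a9, Ngp and Ltf, summed to 13050 to 25330 CPM in LTearly, 5194 to 9270 CPM in LTlate and 1435 to 7025 CPM in BMTGMP, against 57.18 to 148.1 CPM in wtGMP, in the group order of Iqgap1. Over the 14 libraries r with Iqgap1 was positive for 11 of 11 of them (median 0.83, against 0.09 and 56.1% positive over all genes) and for 0 of 14 DNA replication genes (median -0.80). Within LTearly the order differs: the neutrophil sums of replicates 1 to 4 were 17370, 25250, 25330 and 13050 CPM, whereas Iqgap1 was highest in replicate 1. The 7 monocyte and macrophage genes in the table, led by Lyz2 and Cybb, summed to 6920 to 8994 CPM in LTearly, 4208 to 6145 CPM in LTlate and 1584 to 2645 CPM in BMTGMP, against 911.3 to 1214 CPM in wtGMP. Antibodies to Cd11b and Gr-1, used to remove cells before the sort, bind mature neutrophils. In bulk RNA a different mix of cells and a different amount of RNA per cell cannot be told apart, and the part of these cells in the Iqgap1 result was not tested.

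For Iqgap2, the 6 eosinophil, basophil and mast cell genes had r above 0 in 6 of 6 (median 0.67, against -0.06 and 43.4% positive over all genes) and summed to 8.305 to 31.86 CPM in LTearly, 92.89 to 317.2 CPM in LTlate and 4.364 to 7.009 CPM in BMTGMP, against 156 to 281.4 CPM in wtGMP. In BMTGMP Epx, Prss34 and Cpa3 of this list were at 0. LTearly stood far below LTlate in this sum, while their Iqgap2 levels overlapped. The part of these cells in the Iqgap2 result was not tested. Erythroid, megakaryocyte, T and NK, and B cell markers each summed to at most 25.81 CPM in any library used.

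**Figure D4:**
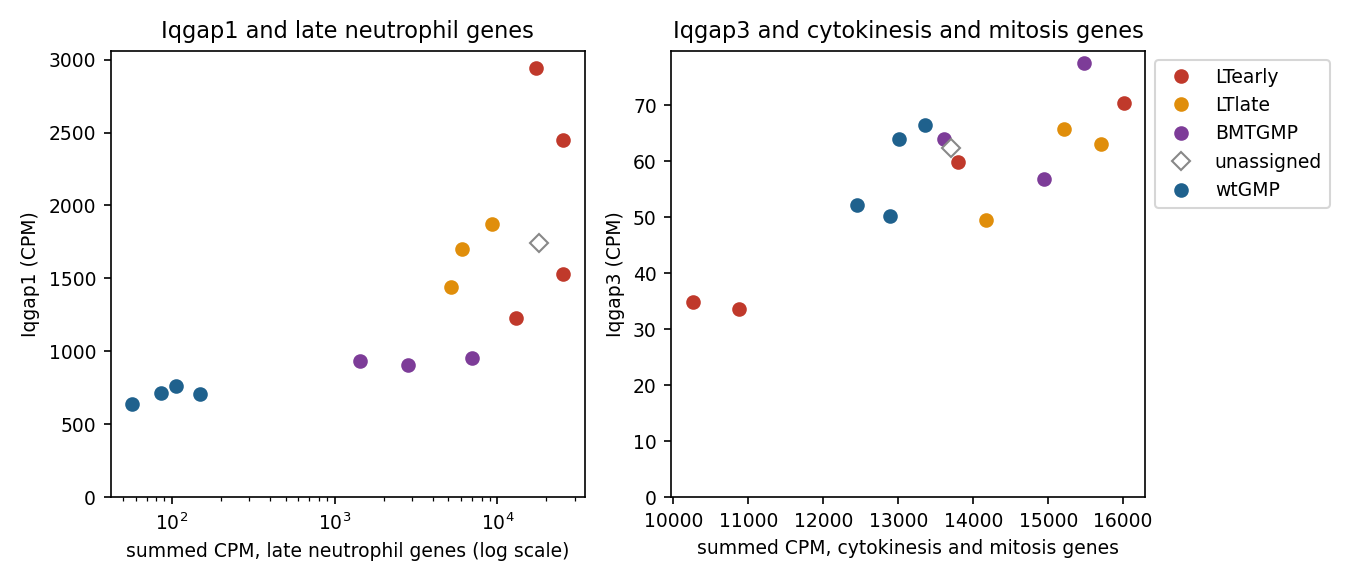
Left, Iqgap1 in CPM against the summed CPM of the late neutrophil genes (log scale); right, Iqgap3 in CPM against the summed CPM of the mitosis and cytokinesis genes (linear axis that does not start at 0), with 1 point per library coloured by group. The wtGMP libraries are lowest in Iqgap1 and in the neutrophil sum, and LTearly 1 and 3 are low in both Iqgap3 and the mitosis sum, at 10260 and 10870 CPM.

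The LTearly calls on Iqgap1 and Iqgap2 were kept when LTearly 3 and 4 were both left out. LTearly 1 and 2, which then remain, also lay nearer to LTlate by rank correlation. The calls of Was, Myl6, Mtor and the mitosis gene Tpx2 in LTearly against wtGMP were lost in that fit. In that fit Iqgap1 in LTearly against wtGMP stood at 1.65 (edgeR adjusted p = 9.11e-08) and Iqgap2 at -1.05 (adjusted p = 0.00695), and against BMTGMP they stood at 1.25 (adjusted p = 0.000131) and 2.22 (adjusted p = 1.91e-05). The unassigned library had 1746 CPM of Iqgap1, 519.3 CPM of Iqgap2 and 62.31 CPM of Iqgap3, each within the range of the LTearly libraries. The Iqgap1 and Iqgap3 levels also lay within the LTlate ranges of 1445 to 1875 and 49.5 to 65.8 CPM. The Iqgap2 level lay above the highest LTlate library, at 413.9 CPM. The shares of the family's signal in the unassigned library were 69.95%, 26.83% and 3.228%.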

How the data were processed

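The authors deposited 1 table of expected counts for 28847 RefSeq transcripts. Per the file headers the reads were placed on mm9 with up to 100 hits each, and 13.75% of the values are not whole (tolerance 1e-06). The submitters' processing notes list Bowtie 0.9.9.1; libraries were made from 150 ng of RNA per the labels' protocols, and the use of strand in counting is not given in the sources used here. Another 1 column matches no sample and was not used, and 1 library whose title and column name disagree entered no comparison.

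Of the transcripts, 26092 were matched to 20453 genes; the others held 3.51 to 4.16% of each library's counts. For each gene the transcript of highest mean count was kept and its values rounded to whole numbers. Table totals were 3487772 to 21462900. Of 105 pairs of libraries 0 were identical (highest rank correlation over all transcripts 0.925). The 14 libraries entered 1 fit with a mean per group in edgeR 4.0.16 (R 4.3.3): TMM scaling, filterByExpr, the robust quasi-likelihood test, 2-sided, with Benjamini-Hochberg adjustment over 14542 genes within each of 7 comparisons. The common biological coefficient of variation was 0.748, against 0.223, 0.228 and 0.271 for Iqgap1, Iqgap2 and Iqgap3. An SE is a log2 fold change divided by the root of its F statistic, and intervals are 1.96 SE to either side. CPM are counts per scaled library size, as edgeR gives them, and r is Pearson's r of log2 CPM with a prior count of 2. Lengths are those of GENCODE M21 transcripts (7444, 5771 and 5756 bases for Iqgap1, Iqgap2 and Iqgap3).

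Genes and lists were chosen with earlier results of these data known, so their tests are not independent support. Besides the family, the text names the 5 genes most like and 3 least like each member, up to 4 genes per list with the smallest p, and the leading or absent markers; some results under this rule are not reported here. Alternatives were DESeq2 1.42.0, median-ratio size factors, no filter, a filter of 1 CPM in 3 libraries, a block for the replicate number, the unassigned library placed in LTearly or in LTlate, a fit of the compared groups alone, summed transcripts, each library left out in turn and, added after seeing the data, LTearly 3 and 4 both left out.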

Additional observations from a re-analysis of the deposited data

Results flagged for a closer look

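Among the MLL-AF9 groups, the change from wtGMP differed by the direct test of 1 group against the other. Iqgap1 was higher in LTearly than in BMTGMP by 1.129 on the log2 scale (edgeR adjusted p = 0.00197) and in LTlate than in BMTGMP by 0.845 (adjusted p = 0.0466, a call that several alternatives end). Iqgap2 was higher in LTearly than in BMTGMP by 2.29 (adjusted p = 5.76e-07) and in LTlate than in BMTGMP by 2.063 (adjusted p = 8.19e-06).

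The library whose title says LTearly and whose column name says LTlate, used in no comparison, had 1746 CPM of Iqgap1, above the highest wtGMP library at 765.6 CPM.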

How the results depend on the processing

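Of 244 values of Iqgap1 and Iqgap2 under the alternatives, 237 kept their direction and their side of the threshold. The exceptions all concern Iqgap1 in LTlate against BMTGMP: 0.813 with median-ratio size factors (adjusted p = 0.144), 0.834 with transcripts summed per gene (adjusted p = 0.0991) and 0.758 to 0.943 with a library left out (edgeR adjusted p = 0.0438 to 0.215), the call being lost without LTlate 2, LTlate 3, BMTGMP 1, BMTGMP 2 or BMTGMP 4. Over all 3 genes 343 of 366 values stayed. For Iqgap3 the mean of the MLL-AF9 groups against wtGMP, -0.004, turned to 0.012 with median-ratio factors, 0.017 with the unassigned library as LTearly, 0.016 with transcripts summed, 0.013 in DESeq2, 0.018 without LTearly 3 and 4, and -0.075 to 0.071 with a library left out; in LTlate against wtGMP it ran from -0.048 to 0.147 with a library left out. None of these Iqgap3 values was called, and the causes were not tested.

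The number of genes called between LTearly and LTlate (38) was 141 without a filter, 86 and 0 with the unassigned library as LTearly and as LTlate (the fit with it as LTlate had 1507 genes at an unadjusted p under 0.05), 21 with transcripts summed, 256 in DESeq2, 173 without LTearly 3 and 4, and 4 to 198 with a library left out. It was 2486 in LTlate against wtGMP with only those groups in the fit and 921 to 1333 with a library left out. In LTearly against BMTGMP it was 407 with only those groups, 1494 in DESeq2 and 583 to 1269 with a library left out. DESeq2 called 1423 in BMTGMP against wtGMP and 569 in LTlate against BMTGMP, where leaving out a library gave 155 to 308.

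Libraries with the same replicate number did not deviate together: r ran from -0.162 to 0.115 over 18 pairs, 1 of them over 0.1, and 3 of 14 libraries correlated best with their own number, so the numbers were not taken to pair the samples. With the replicate number as a block no call on the 3 genes changed (Iqgap1 in LTlate against BMTGMP 0.845, adjusted p = 0.0496), and the genes called numbered 2758 in LTearly, 1479 in LTlate and 845 in BMTGMP against wtGMP, 41 in LTearly against LTlate, 806 and 312 in LTearly and LTlate against BMTGMP, and 2291 on the mean. Of 56 partner and list genes named, by comparison, 18 lost their call under some alternative and 0 reversed. The fit of only the groups compared was not run for the mean of the 3 groups, which uses them all. Iqgap3 rested on as few as 93 counts in a library, which limits what differences could be seen.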
